A study of Mus musculus with 4 samples.

Results

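The expression of 9 genes of the TGF-β and BMP pathways was examined in mouse embryonic fibroblasts (MEF cells) exposed to genistein, a plant isoflavone. The genes were the ligands Tgfb1, Tgfb2, Tgfb3 and Bmp4, the inhibitory Smad genes Smad6 and Smad7, and the target genes Id1, Id2 and Id3. They were taken by symbol from the deposited count table, and each of the 9 symbols matched 1 of the 47937 gene rows. Total RNA had been sequenced from 4 libraries, 2 per group. The control MEF libraries carried the labels wild-type and untreated. The other libraries came from MEF cells given 50 µM genistein for 24 h, and their genotype field named only the treatment. In other assays of the study, untreated cells received the solvent DMSO, which was not stated again for these libraries. Nothing said that the replicates were separate cultures, so the p-values measure the spread between libraries, which may be technical.

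TGF-β and BMP ligands are secreted dimers that bind pairs of serine/threonine kinase receptors. The activated receptors phosphorylate Smad proteins, with Smad2 and Smad3 serving TGF-β and activin, and Smad1, Smad5 and Smad9 serving BMP, and both sets act together with Smad4 in the nucleus. Smad6 and Smad7 are induced by the pathway and feed back on it, and the Id genes are classical BMP targets whose products bind basic helix-loop-helix factors and keep them from DNA. In fibroblasts, TGF-β is best known for driving matrix synthesis and the contractile myofibroblast state.

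The 4 libraries held 28591958 to 31464284 counts over genes and repeats. Of 12 fibroblast markers, 10 passed the filter on low counts, Thy1 had no count in any library and Lum had 1 to 10. Of these 10, 8 were lower with genistein at an adjusted p-value under 0.05 by edgeR, and only Fn1 and Dcn were higher. Pdgfrb was at -0.73 and Col1a2 at -0.50 on the log2 scale. Of all genes tested, 38.2% were lower and 33.5% higher at that threshold. The 12 markers summed to 449900 and 461900 normalised counts without genistein against 437000 and 427400 with it. A normalised count is the count scaled to a common library size. Some defining markers of other cell types were at or near 0, with Epcam and Krt5 at 0, Cdh1 at 4 to 8, Pecam1 at 2 to 9 and Ptprc at 0 to 1 raw counts per library. The summed epithelial list (6 markers) was 773 and 722 in untreated and 149 and 147 in genistein libraries, and most of it was Krt14. The endothelial list (5 markers) summed to 19.0 and 26.5 against 76.0 and 85.0, most of it Kdr, and the haematopoietic list (6 markers) to 86.9 and 66.7 against 216 and 218, most of it Cd68. The neural list (5 markers) summed to 915 and 860 against 783 and 747, most of it Tubb3. Kdr rose by 1.98 on the log2 scale, Cd68 rose from 84 and 62 to 225 and 210 raw counts, and Krt14 was lower at -2.68. Mitochondrial genes took 2.35% and 2.25% of gene counts in untreated and 3.86% and 3.63% in genistein libraries. The part of these shifts in the results below was not tested. In bulk RNA, a change in the number of cells that express a gene and a change in the RNA per cell cannot be told apart.

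Of the 9 genes, 5 were higher with genistein and 3 were lower at an adjusted p-value under 0.05 by edgeR's quasi-likelihood test. The higher genes were both inhibitory Smads and the 3 Id genes. The lower genes were Tgfb1, Tgfb2 and Bmp4, and Tgfb3 was not called. At that threshold 33.5% of the 16240 genes tested were higher and 38.2% were lower, so calls were frequent throughout the transcriptome. The 5 higher genes made up 55.6% and the 3 lower genes 33.3% of the set, which was chosen with earlier results of these data known. The median log2 fold change was 0.34 over the 9 genes and -0.03 over all genes tested. None of the 9 genes reached the thresholds of the study, which also ask for a change beyond 1 on the log2 scale in either direction and for more than 100 normalised counts on average. That count was 0 by edgeR and by DESeq2. It was set by the fold threshold, since the largest absolute change was 0.80, and it was therefore also 0 at an unadjusted p-value under 0.05. Past all those thresholds lay 3.92% of all genes on the higher side and 4.16% on the lower side. The lowest raw count of any of the 9 genes was 288. In 8 of the 9 genes the groups of libraries did not overlap, as they did not in 85.3% of all genes tested.

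**Figure D1:**
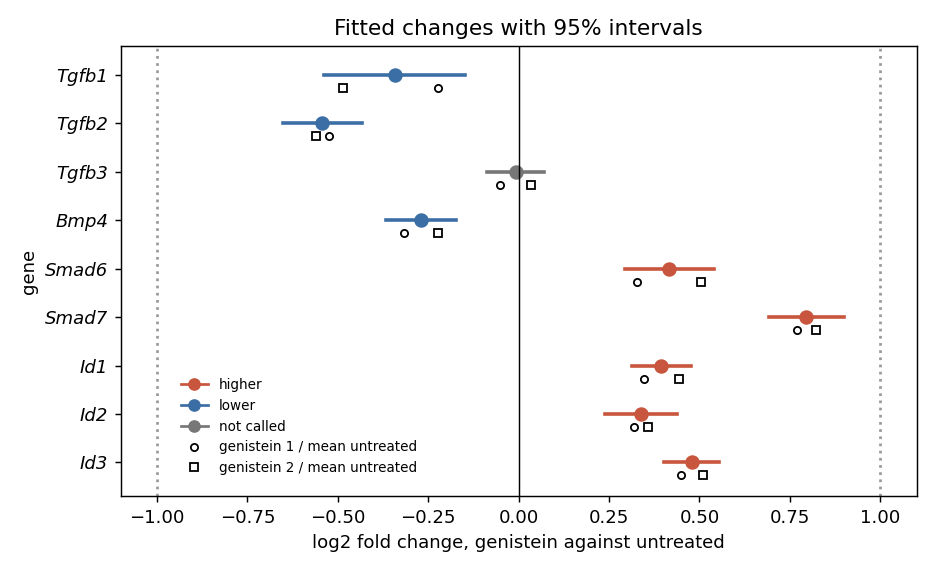
Fitted log2 fold change of each of the 9 genes, genistein against untreated (x axis), with its 95% interval (bar), coloured by call at an adjusted p-value under 0.05. Open symbols show each genistein library relative to the untreated mean, and dotted lines mark log2 fold changes of -1 and 1. The Smad6, Smad7, Id1, Id2 and Id3 intervals lie above 0, those of Tgfb1, Tgfb2 and Bmp4 below 0, and that of Tgfb3 holds 0.

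Sequence upstream of the transcription start was available for 6 of the 9 genes in the RefSeq promoter table of build GRCm38.p6, and Tgfb3, Smad7 and Id1 had no entry. It is shown for 1 inhibitory Smad and 1 Id gene that were higher and for 1 ligand that was lower, so that the letters searched can be seen in place. Only bases before the RefSeq start and outside every annotated exon are printed, 5′ to 3′ on the strand of the gene. The Smad6 stretch is chr9:64022060-64022309 on the minus strand, the Id2 stretch is chr12:25096254-25096342 on the minus strand, inside the annotated span of the gene but between exons, and the Tgfb2 stretch is chr1:186706157-186706239 on the minus strand. Capitals mark GGCGCC, a GC-rich element bound by BMP Smads, or CAGAC, a Smad-binding element.
Smad6: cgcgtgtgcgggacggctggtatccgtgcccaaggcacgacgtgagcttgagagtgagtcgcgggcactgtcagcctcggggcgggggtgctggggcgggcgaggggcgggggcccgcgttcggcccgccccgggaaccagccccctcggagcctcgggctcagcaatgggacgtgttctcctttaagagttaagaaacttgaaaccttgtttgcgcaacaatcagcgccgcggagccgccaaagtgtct
Id2: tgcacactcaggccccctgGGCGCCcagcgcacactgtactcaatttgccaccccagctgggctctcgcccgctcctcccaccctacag
Tgfb2: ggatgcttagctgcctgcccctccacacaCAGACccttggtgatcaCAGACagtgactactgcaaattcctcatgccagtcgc

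Motifs were counted on both strands of the 250 bases before each start, and no matches overlapped. GGCGCC stood once in the Id2 window, beginning at position -231 relative to the start, and it was in 9.59% of all 32851 windows of this length. CAGAC stood 2 times in the Tgfb2 window, at positions -221 and -204, and 2 times in the Id3 window, at positions -167 and -68. All 250 bases of the Id3 window lie in annotated exon sequence of the gene. CAGAC was in 42.2% of all windows. The longer palindrome GTCTAGAC was in none of the 6 windows and in 0.167% of all. TATAAA stood once, at position -31 of Tgfb2, and was in 12.4% of all windows. That position lies in the 167 bases of the Tgfb2 window that are annotated exon sequence and are not printed. The Smad6, Tgfb1 and Bmp4 windows held none of these letters. GC content was 66.8% for Smad6, 62.8% for Id2 and also for Id3, 75.2% for Tgfb1, 63.2% for Bmp4 and 53.6% for Tgfb2, against a median of 52.4% over all windows. These matches describe the sequence alone, and higher and lower genes were found both with and without CAGAC.

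The levels of the 9 genes were compared per length, as CPM (counts scaled to library size) per kilobase of merged exons. Id1 was the most abundant at 83.3 ± 0.465 in untreated and 109.5 ± 5.16 in genistein libraries (SD, n = 2). Id3 followed at 56.7 ± 0.998 and 79.0 ± 2.35, and Tgfb3 was the most abundant ligand at 34.5 ± 0.241 and 34.4 ± 1.48. Bmp4, Id2 and Smad6 came next, with untreated means of 27.6, 17.2 and 12.1. At the lower end, Tgfb2 and Smad7 had untreated means of 7.47 and 6.99, and Tgfb1 had 2.71. No neighbours in this order overlapped between libraries in either group. The order was the same in both groups except at Tgfb2 and Smad7, which stood in reverse order with genistein, at 5.13 and 12.1.

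**Figure D2:**
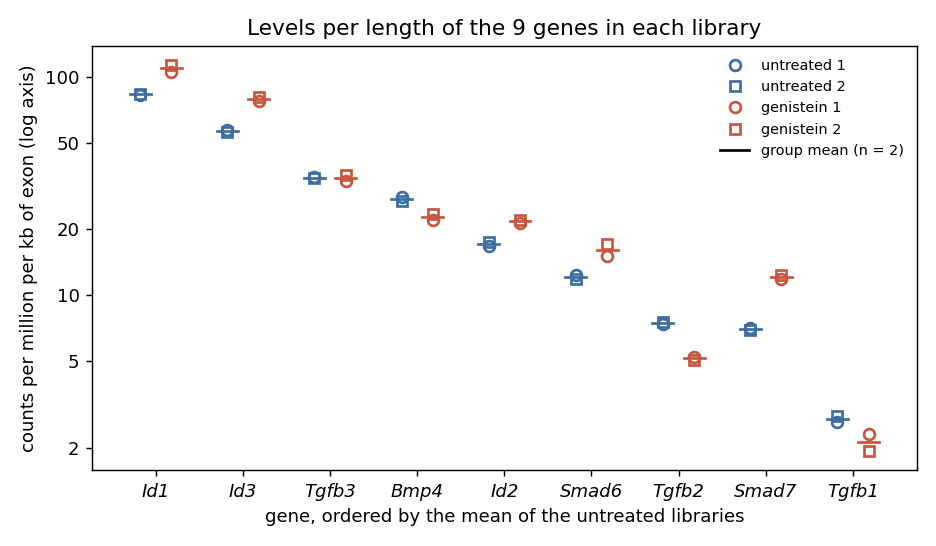
Level of each gene in each library as CPM per kilobase of merged exons (log axis), with genes ordered by their untreated mean. Symbols are single libraries and lines are group means (n = 2). Id1 lies highest and Tgfb1 lowest in both groups, and Smad7 moves from below Tgfb2 (6.99 against 7.47) to above it (12.1 against 5.13).

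Among the 4 ligands, Tgfb2 had the largest decrease on the log2 scale. Tgfb2 encodes the TGF-β isoform known for its roles in heart, palate and eye development, and lies on chromosome 1 from 186622792 to 186705989. Its normalised read count was 1282 and 1307 without genistein against 899 and 878 with it. Both genistein libraries were below both untreated libraries, with a narrow spread within each group. The log2 fold change was -0.54 ± 0.051, or 0.687-fold (SE, adjusted p = 8.1e-08, edgeR's quasi-likelihood test). An antisense gene, Gm29491, shares 124 bases with its exons and had 4 to 11 raw counts, against 288 or more for each of the 9 genes. Whether the counting used strand was not stated, so reads of such partners may be shared.

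Tgfb1 encodes the founding TGF-β isoform, the main one of immune regulation and fibrosis, and lies on chromosome 7 from 25687002 to 25705077. Its normalised read count was 394 and 422 without genistein against 350 and 292 with it. The groups did not overlap, but the genistein libraries lay farther from each other than the nearest libraries of the groups did. The log2 fold change was -0.34 ± 0.092 (SE, 95% interval -0.54 to -0.15, adjusted p = 0.0032, edgeR). Without genistein 2 it was -0.22, and over all settings tried the highest adjusted p-value was 0.0365.

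Tgfb3 encodes the third isoform, required for palate fusion, and lies on chromosome 12 from 86056745 to 86079041. Its normalised read count was 3512 and 3478 without genistein against 3370 and 3582 with it. The untreated values lay between the genistein values. The log2 fold change was -0.01 (95% interval -0.09 to 0.07, adjusted p = 0.85, edgeR). On the opposite strand, Gm48008 shares 257 bases with its exons and had no row of its own in the counts. Gm37804 shares 163 bases and had 1 to 3 raw counts. Ttll5, also on that strand, overlaps the gene, shares 0 exon bases and had 844 to 991 raw counts. The part of Ttll5 or Gm48008 reads in the Tgfb3 counts was not tested. The sign of the Tgfb3 change turned with the scaling and with the library left out.

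Because raw count ratios within a library do not depend on scaling between libraries, the isoforms were also set against Tgfb3. Tgfb2 reads were 0.365 and 0.376 of Tgfb3 reads without genistein against 0.267 and 0.245 with it. For Tgfb1 the ratios were 0.112 and 0.122 against 0.104 and 0.0814. For Bmp4 they were 0.538 and 0.522 against 0.442 and 0.443. All 3 ratios were lower in both genistein libraries, and the smallest p that an exact permutation test (two-sided) allows for 2 and 2 libraries is 0.333.

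Bmp4 encodes a BMP ligand of mesoderm and bone development and lies on chromosome 14 from 46383520 to 46390669. Its normalised read count was 1890 and 1815 without genistein against 1488 and 1586 with it. The decrease was larger than the spread between replicates, with a log2 fold change of -0.27 ± 0.046 (SE, adjusted p = 6.3e-05, edgeR). The overlapping Gm15217, which shares 89 bases with its exons, had 0 counts. Of all genes tested, 67.5% had a larger absolute log2 fold change.

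The inhibitory Smads were both higher. Smad7, which blocks TGF-β and BMP receptors and recruits ubiquitin ligases to them, lies on chromosome 18 from 75367529 to 75395935. Its normalised read count was 955 and 935 without genistein against 1610 and 1672 with it. This was the largest change of the 9 genes in absolute log2 terms, with every genistein library far above every untreated one. The log2 fold change was 0.80 ± 0.049, or 1.74-fold (SE, adjusted p = 4.1e-10, edgeR). Even so, 25.2% of all genes tested had a larger absolute log2 fold change.

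Smad6, which acts mainly on BMP signalling, lies on chromosome 9 from 63953076 to 64022059. Its normalised read count was 1188 and 1132 without genistein against 1456 and 1644 with it. Here the genistein libraries differed more from each other than the untreated ones, with SDs of 132.6 and 39.6, and still did not overlap them. The log2 fold change was 0.42 ± 0.058 (SE, 95% interval 0.29 to 0.54, adjusted p = 7.4e-06, edgeR). The interval of Smad7, 0.69 to 0.90, did not overlap that of Smad6, but the difference itself was not tested. Within libraries, Smad7 reads were 0.804 and 0.826 of Smad6 reads without genistein and 1.11 and 1.02 with it. Smad7 thus passed Smad6 in raw counts in both genistein libraries. Per kilobase of merged exons Smad7 stayed below Smad6 with genistein, at means of 12.1 against 16.2.

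The 3 Id genes were all higher. Id3 lies on chromosome 4 from 136143497 to 136145755, and its normalised read count was 3073 and 2997 without genistein against 4142 and 4320 with it. The log2 fold change was 0.48 ± 0.036, or 1.39-fold (SE, adjusted p = 4.2e-09, edgeR). Id1, which lies on chromosome 2 from 152736251 to 152737410, had 2878 and 2901 normalised counts without genistein against 3673 and 3926 with it. Its fitted log2 change was 0.39 ± 0.038 (SE, adjusted p = 1.1e-07, edgeR). Id2 lies on chromosome 12 from 25093799 to 25097140, and had 1229 and 1284 normalised counts without genistein against 1567 and 1610 with it. Its fitted log2 change was 0.34 ± 0.047 (SE, adjusted p = 7.5e-06, edgeR).

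In each Id gene both genistein libraries lay above both untreated libraries. The 95% intervals of the log2 fold changes were 0.40 to 0.55 for Id3, 0.31 to 0.48 for Id1 and 0.24 to 0.44 for Id2, and they overlapped. Whether the Id genes differ in their change was not tested. Id1 reads were 0.937 and 0.968 of Id3 reads without genistein against 0.887 and 0.909 with it. Id2 reads were 0.40 and 0.43 of Id3 reads against 0.38 and 0.37. Both ratios were therefore slightly lower in the genistein libraries. Of all genes tested, 46.4%, 54.1% and 60.0% had a larger absolute log2 fold change than Id3, Id1 and Id2.

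The calls of the 9 genes were also recomputed with other scalings, filters and tools, with a replicate block and with each library left out. The 8 called genes kept their direction and call in all 10 of these settings, while Tgfb3 moved around 0.

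**Figure D3:**
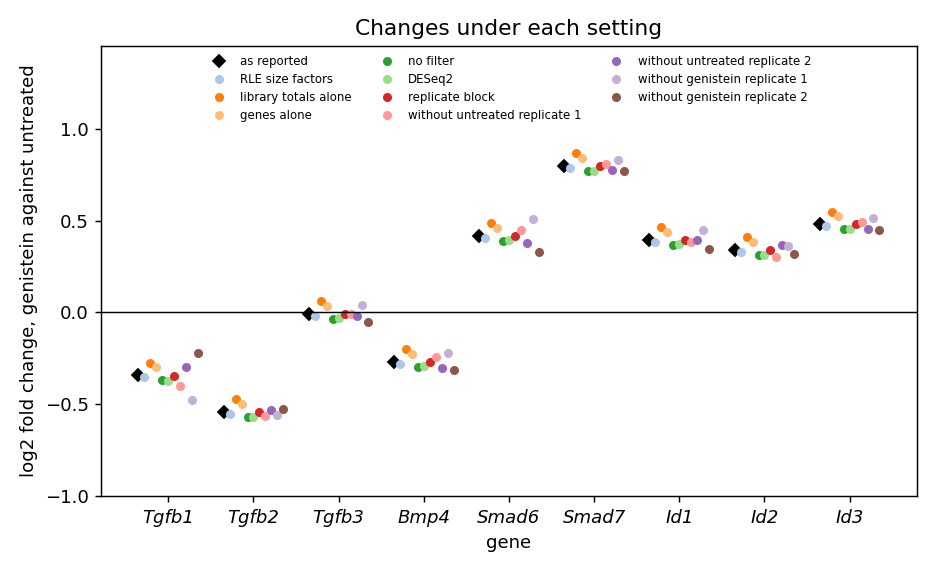
Log2 fold change of each of the 9 genes (y axis) as reported (diamond) and under 10 other settings of scaling, filtering, tool, block and library left out (circles). The points of the 8 called genes stay on one side of 0, and those of Tgfb3 lie from -0.052 to 0.062.

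Other genes of the pathways were followed in 9 lists written from general knowledge, with 119 genes in all, and chosen like the 9 genes with earlier results known. Of these, 83 passed the filter on low counts, 33 were higher, 26 were lower and 24 were not called, and the median log2 fold change was -0.001. The higher share was 39.8% and the lower share 31.3%, against 33.5% and 38.2% of all genes tested. By DESeq2, 23 pathway genes were higher and 24 lower. That fit had no filter on low counts and held 25636 genes, of which 3773 were higher and 5317 lower. Its pathway genes were not limited to the 83, so these counts cannot be set against the shares above. The lean of all genes depended on the scaling, with 6085 higher and 5530 lower by library totals alone and 5888 and 5830 with genes fitted alone, against 5436 and 6210 as reported. No test of a list as a whole was made. Up to 3 genes of each list are named by size of change, and other names were chosen after their values were seen. Percentages given for a list below are shares of its tested genes. They stand beside 33.5% higher and 38.2% lower of all genes tested.

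**Figure D4:**
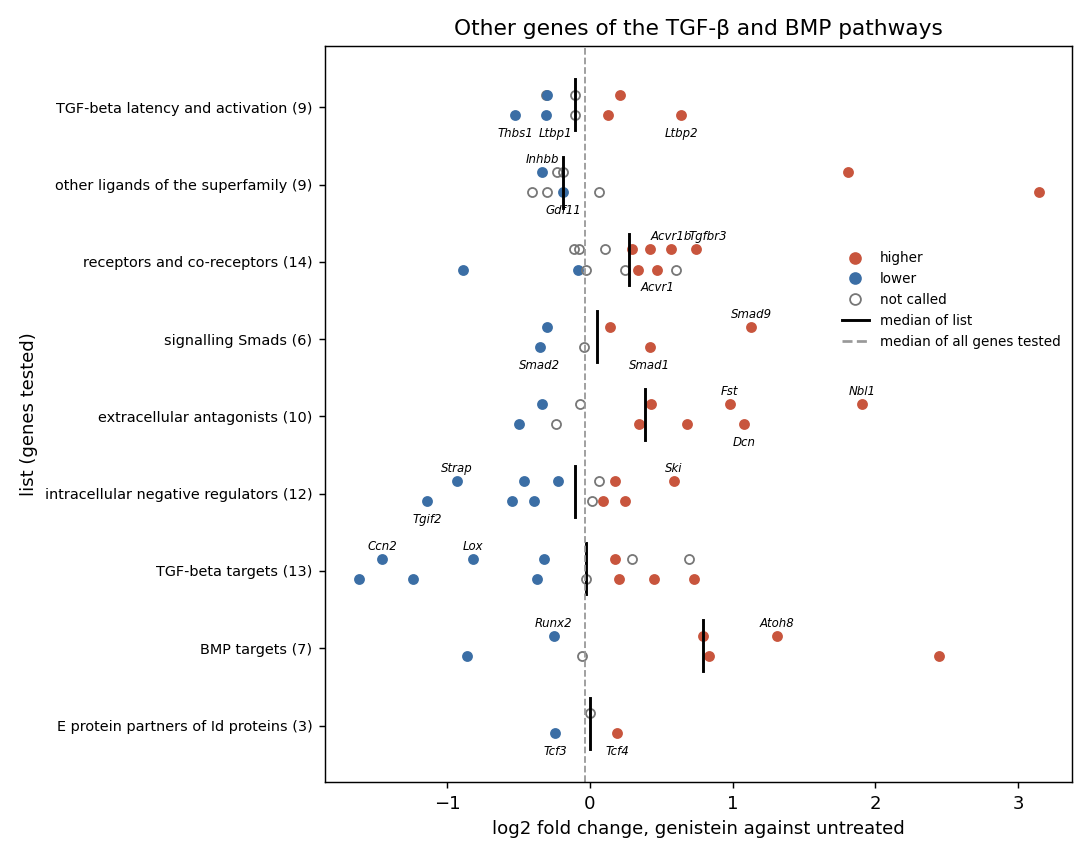
Log2 fold change, genistein against untreated (x axis), of each tested gene in the 9 lists (y axis, with the number tested), filled where the adjusted p-value was under 0.05. Black bars are list medians and the dashed line is the median of all genes tested (-0.03). Labels mark genes picked by size of change among those called with a mean normalised count over 100. Larger changes at lower counts, such as those of Bmp8a and Alpl, carry no label. The antagonist and BMP target medians lie at 0.39 and 0.79. Of the 7 BMP targets tested, 4 had a mean normalised count of at most 100, as did 3 of the 10 antagonists. Among TGF-β targets, Ccn2 and Lox lie at -1.46 and -0.82.

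Of 13 TGF-β targets tested, 4 were higher (30.8%), 6 were lower (46.2%) and 3 were not called, with a median of -0.03. Ccn2, a matricellular protein of fibrosis, had 4143 and 3988 normalised counts without genistein against 1487 and 1476 with it, a log2 fold change of -1.46 ± 0.038 (SE). Lox, which cross-links collagen, had 12615 and 12629 against 7126 and 7184, a log2 fold change of -0.82. Both genes were lower in each genistein library by far more than the spread between replicates, and the higher of their adjusted p-values was 4.4e-11 (edgeR). The higher members of this list were Snai1, Snai2, Fn1 and Junb, with log2 fold changes of 0.45, 0.73, 0.20 and 0.18.

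Of 10 BMP targets, 7 were tested, with 4 higher (57.1%), 2 lower (28.6%), 1 not called and a median of 0.79. Of these 7, 4 had a mean normalised count of at most 100. Atoh8, a basic helix-loop-helix factor, had 717 and 764 normalised counts without genistein against 1809 and 1869 with it. Its fitted log2 change was 1.31 ± 0.052 (SE, adjusted p = 1.8e-12, edgeR). Runx2, the master factor of bone formation, was lower at 1119 and 1220 against 992 and 969, with a fitted change of -0.25 on the log2 scale (edgeR, adjusted p = 0.00074). The other higher genes, Id4, Dlx3 and Alpl, had at most 39.2 normalised counts in an untreated library, and the standard errors of their log2 changes were 0.22 to 0.24. Hey1, the other lower gene, had 29 and 40 raw counts without genistein against 19 and 21 with it. Its log2 fold change was -0.86. Id4, Dlx3 and Hey1 were not called by DESeq2.

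Of 6 signalling Smads tested, 3 were higher (50.0%), 2 were lower (33.3%) and Smad4 was not called. Smad9, of the BMP arm, had 105 and 116 normalised counts without genistein against 227 and 258 with it, a log2 fold change of 1.13 ± 0.12 (SE). Smad1, of the same arm, had 788 and 765 against 1011 and 1067, a log2 fold change of 0.42. Smad2, of the TGF-β arm, had 1669 and 1707 against 1300 and 1345, a log2 fold change of -0.35. Smad5 was lower at -0.30 and Smad3 higher at 0.14, and Smad3 was not called by DESeq2 (adjusted p = 0.0535). The highest adjusted p-value of these 5 genes was 0.0014 (edgeR).

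Of 17 receptors and co-receptors, 14 were tested, with 6 higher (42.9%), 2 lower (14.3%), 6 not called and a median of 0.27. Tgfbr3, the co-receptor betaglycan that presents TGF-β2 to its receptors, had 1749 and 1642 normalised counts without genistein against 2816 and 2869 with it, a log2 fold change of 0.74 ± 0.041 (SE). Acvr1b, a type I receptor of activin, had 371 and 396 against 572 and 563, a log2 fold change of 0.57. Acvr1, a type I receptor of BMP, had 621 and 662 against 923 and 855, a log2 fold change of 0.47. The highest adjusted p-value of these 3 was 4.2e-06 (edgeR). The lower receptors were Acvr2b, at 73 and 59 against 38 and 37 raw counts and -0.89 on the log2 scale, and Bmpr1a at -0.08, which lost its call in 6 of the 10 other settings. The main type I receptor Tgfbr1 differed by -0.03 on the log2 scale (adjusted p = 0.58, edgeR). The type II receptors Tgfbr2 and Bmpr2 were higher at 0.34 and 0.42, and kept the call in all 10 other settings.

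Of 18 extracellular antagonists with the pseudoreceptor Bambi, 10 were tested, 6 were higher, 2 were lower and 2 were not called, with a median of 0.39. Nbl1, a BMP antagonist of the DAN family, had 131 and 106 normalised counts without genistein against 484 and 404 with it, a log2 fold change of 1.90 ± 0.12 (SE). Dcn, a proteoglycan that binds TGF-β, had 6795 and 6399 against 13632 and 14239, a log2 fold change of 1.08. Fst, which traps activins, had 311 and 289 against 543 and 644, a log2 fold change of 0.98. The highest adjusted p-value of these 3 was 4.6e-08 (edgeR). The lower members were Bmper and Grem1, at -0.50 and -0.34. Chrd, among the higher ones, was not called by DESeq2 (adjusted p = 0.0664).

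All 12 intracellular negative regulators were tested, and 4 were higher (33.3%), 6 lower (50.0%) and 2 not called, with a median of -0.10. Tgif2, a homeobox corepressor of Smads, had 590 and 595 normalised counts without genistein against 269 and 268 with it, a log2 fold change of -1.14. Strap, which binds the TGF-β receptors with Smad7, had 7617 and 7299 against 3854 and 3969, a log2 fold change of -0.93. Ski, a corepressor that binds Smads, was higher at 1634 and 1835 against 2612 and 2598, a log2 fold change of 0.59. The highest adjusted p-value of these 3 was 1.2e-08 (edgeR). Skil and Pmepa1, which TGF-β induces and which restrain it, were lower at -0.55 and -0.46, as were Fkbp1a and Trim33 at -0.40 and -0.22. The other higher members were Tgif1, Nedd4l and Smurf2, at 0.24, 0.18 and 0.09. Nedd4l and Smurf2 were not called by DESeq2.

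Of 11 genes for latency and activation of TGF-β, 9 were tested, with 3 higher (33.3%), 3 lower (33.3%) and 3 not called. Ltbp2, a matrix protein of the latent TGF-β binding family, had 818 and 807 normalised counts without genistein against 1347 and 1184 with it, a log2 fold change of 0.64. Thbs1, an activator of latent TGF-β, had 42685 and 42843 against 29489 and 30073, a log2 fold change of -0.52. Ltbp1, which anchors latent TGF-β in the matrix, had 12753 and 13140 against 10577 and 10364, a log2 fold change of -0.31. The highest adjusted p-value of these 3 was 1.4e-05 (edgeR).

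Of 29 further ligands of the superfamily, 20 did not pass the filter on low counts. The other 9 were tested, with 2 higher (22.2%), 2 lower (22.2%) and 5 not called. Inhbb, an activin subunit, had 599 and 616 normalised counts without genistein against 481 and 484 with it, with a fitted change of -0.33 on the log2 scale (edgeR, adjusted p = 0.00020). Gdf11, a ligand of axial patterning, had 1147 and 1142 against 1023 and 984, with a fitted change of -0.19 on the log2 scale (edgeR, adjusted p = 0.0038), but with library totals alone it was -0.12 and no longer called (adjusted p = 0.055, edgeR). The higher genes, Bmp8a and Gdf15, had 2 to 6 raw counts in the untreated libraries and 14 to 30 in the genistein libraries, and Gdf15 was not called by DESeq2.

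Id proteins act by binding E proteins, and the 3 genes for these partners were followed as well. Tcf3 was lower, with 3413 and 3403 normalised counts without genistein against 2953 and 2801 with it, with a fitted change of -0.24 on the log2 scale (edgeR, adjusted p = 1.8e-05). Tcf4 was higher, with 1284 and 1371 against 1487 and 1546, with a fitted change of 0.19 on the log2 scale (edgeR, adjusted p = 0.0024). Without untreated 1 it was 0.14 and no longer called (adjusted p = 0.062, edgeR). Tcf12 differed by -0.0014 on the log2 scale (adjusted p = 0.98, edgeR).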

How the data were processed

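Total RNA of untreated and genistein-exposed MEF cells was sequenced after depletion of ribosomal RNA. The authors trimmed the paired reads with Trim Galore, aligned them to mm10 with STAR and counted them over Gencode M9 genes and repeats with TEtranscripts. The deposited values are raw counts, with 1 column per library, and the strand option of the counter is not given in the sources used here. The 1 unnamed entry (0.00208% to 0.00314% of counts) was left out.

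Gene and repeat counts entered a single fit (edgeR 4.0.16, R 4.3.3). After filterByExpr, 16240 genes and 1118 repeats remained, and TMM factors set the library sizes. The quasi-likelihood test compared the groups, and p-values were adjusted by Benjamini-Hochberg across genes and repeats together. A normalised count is a count divided by the effective library size times the mean of those sizes. The standard error is the absolute log2 fold change divided by the square root of F. Levels per length used merged exons of Gencode M21 on GRCm38, the assembly of mm10. Coordinates are counted from 1.

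The 9 genes and the lists were chosen with earlier results of these data known. From each list, the text names up to 3 genes with the largest absolute log2 fold change among those called, with a mean normalised count over 100 and groups that do not overlap; other genes named in the lists were chosen after their values were seen. A gene that this rule selects is counted in its list but not reported here. The ratio of chi-square to its degrees of freedom was 5.70 between untreated libraries and 13.1 between genistein libraries, above sampling noise. Replicate libraries were therefore not the same library counted again, but this ratio cannot tell separate cultures from libraries of the same RNA. The test was checked on simulated data. Alternatives covered scaling, filtering, DESeq2 1.42.0, thresholds, the replicate number as a block, and each library left out in turn.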

Additional observations from a re-analysis of the deposited data

How the results depend on the processing

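The calls of the 9 genes did not depend on the settings tried: 5 higher, 3 lower and 0 past the thresholds of the study under RLE size factors, library totals, genes fitted alone, no filter, DESeq2, the replicate block and each of the 4 fits with a library left out. A mean count over 10 and a test against the fold threshold also gave 0. Neither could have given more, since the largest absolute log2 change of the 9 genes was 0.80. The direction of Tgfb3, which was not called, reversed to 0.062 with library totals, 0.035 with genes fitted alone and 0.041 without genistein 1, and leaving out each library gave -0.052 to 0.041. Library totals moved the median of all genes from -0.03 to 0.04 on the log2 scale. Leaving out each library gave 30 to 34 higher and 25 to 27 lower pathway genes; DESeq2 gave 23 and 24, against 33 and 26 as reported. The replicate block gave 32 higher and 25 lower pathway genes and changed no call of the 9 genes. Same-numbered libraries were not shown to be pairs, since their deviations correlated at -0.03. Of the 23 pathway genes named by size of change, 21 kept their direction and call under all 10 settings, and the exceptions were Gdf11 and Tcf4. Of 35 other called pathway genes, 24 kept them and 11 lost the call in at least 1 setting. With 2 libraries per group, the fits without a library assume that the lone library varies like the others. Counting intervals are not given, because without molecular identifiers the reads cannot be counted as separate molecules.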
